A study of Mus musculus with 8 samples.

Results

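The 10 genes described here are long non-coding RNAs (lncRNAs), most of them known to be abundant in many cell types. They are the nuclear RNAs Malat1, Neat1 and Miat and the small nucleolar RNA (snoRNA) host genes Gas5, Snhg1, Snhg3, Snhg5, Snhg6, Snhg8 and Snhg12. They were named as a list and found among the 49452 genes of the table by Ensembl identifier, because the table's own symbol column was blank for all 10. The annotation held 7716 lncRNA genes in all.

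The study sequenced ribosome-depleted total RNA of brown adipose tissue (BAT), the fat depot that burns fuel to make heat, to find mRNAs and lncRNAs that follow BAT activity. All mice were male C57BL/6 with no transgene or deletion named, and the 8 libraries fell into 4 groups of 2. The 22 °C group (replicates 4 and 7) was kept at that temperature, and the 4 °C group (replicates 2 and 11) was cold for 24 h, described in the methods as 20 h followed by 4 h of fasting. Whether the 22 °C mice were fasted is not clear from the methods, and these mice were 10 to 12 weeks old. The NCD group (replicates 6 and 8) ate a diet that the labels call normal chow and the methods a control diet. The HFD group (replicates 2 and 6) ate a high-fat diet. The diet mice were 32 weeks old after 28 weeks of feeding, so the temperature and diet mice differed in age. Nothing in the sources says whether a library came from 1 animal. The p-values rest only on the spread between these libraries, for the gene and for other genes of like level. In tissue RNA, fewer cells of a type and less RNA per cell cannot be told apart.

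Malat1 is an unspliced RNA of nuclear speckles, the bodies that store splicing factors, and Neat1 builds paraspeckles, bodies that hold the proteins Nono and Sfpq. SnoRNA host genes carry snoRNAs in their introns, which guide chemical modification of ribosomal RNA. Their spliced exons code for no long protein, often begin with a terminal oligopyrimidine (TOP) tract like that of ribosomal protein mRNAs, and are known to be removed by nonsense-mediated decay (NMD) when ribosomes read them. Host level and snoRNA level need therefore not follow each other.

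Malat1 and Neat1 lie next to each other on chromosome 19, and both long transcripts end not in an added poly(A) tail but in a tract of A that the genome encodes, which folds back on U-rich stretches upstream of it. The ends are shown because they set apart these unspliced RNAs from the spliced hosts. In the GENCODE M21 transcripts, a run of at least 5 A followed by GCAAAA occurred once in each, at base 6691 of the 6983 of Malat1 and at the last base, 20771, of Neat1. The 100 bases that end there (GRCm38, minus strand, chr19:5795982-5796081 and chr19:5824708-5824807) follow as DNA letters, with capitals for the A tract, for TTTTGCTTTT and for TTTCTTTT with any further T directly before it, as found on this strand.
Malat1: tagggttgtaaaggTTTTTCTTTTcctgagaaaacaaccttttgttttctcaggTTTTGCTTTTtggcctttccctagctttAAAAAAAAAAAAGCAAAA
Neat1: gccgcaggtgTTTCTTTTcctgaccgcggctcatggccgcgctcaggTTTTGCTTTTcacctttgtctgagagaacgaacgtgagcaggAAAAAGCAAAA

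Start sites of the host genes are shown because a TOP tract begins there. RefSeq (GRCm38.p6) placed 9 start sites for 8 of the genes, Neat1 and Snhg6 not among them. Capitals mark TATA between 40 and 20 bases before the start, which reads the same on both strands, and any run of at least 5 C or T on the transcribed strand that begins from 5 bases before the start to base 10. These letters were chosen after the sequences had been seen. Each window below has 40 bases before the start and 20 from it on. They are Snhg1 (chr19:8723447-8723506, plus), the downstream start of Gas5 (chr1:161035126-161035185, plus), Snhg8 (chr3:123508317-123508376, minus), Snhg12 (chr4:132308638-132308697, plus), Snhg5 (chr9:88522878-88522937, minus), Snhg3 (chr4:132353667-132353726, minus) and, for contrast, Malat1 (chr19:5802653-5802712, minus).
Snhg1: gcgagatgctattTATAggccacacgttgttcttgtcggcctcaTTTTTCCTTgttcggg
Gas5: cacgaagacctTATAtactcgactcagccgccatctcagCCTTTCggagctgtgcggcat
Snhg8: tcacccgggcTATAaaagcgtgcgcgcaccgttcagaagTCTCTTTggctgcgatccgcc
Snhg12: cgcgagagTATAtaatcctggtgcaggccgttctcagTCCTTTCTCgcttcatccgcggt
Snhg5: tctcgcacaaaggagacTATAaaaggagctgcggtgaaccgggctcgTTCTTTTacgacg
Snhg3: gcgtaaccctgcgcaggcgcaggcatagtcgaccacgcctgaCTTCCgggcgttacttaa
Malat1: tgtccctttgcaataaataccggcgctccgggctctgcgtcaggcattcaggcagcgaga

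The windows of Snhg1, Gas5, Snhg8, Snhg12 and Snhg5 held both the TATA letters and a pyrimidine run. Those of Snhg3 and Miat held only the run, and those of Malat1 and the upstream Gas5 start neither. In Gas5, Snhg8, Snhg12 and Miat the run covered the start base, whereas in Snhg1, Snhg5 and Snhg3 it began downstream of the start. Of 32851 RefSeq windows of the same length, 5.49% held TATA in that place, 28.4% held such a run and 1.8% held both. A match is a description of letters and not of a bound factor. For Snhg6, the first 30 bases of a GENCODE transcript (chr1:9944089-9944118, minus) opened with a run of C and T.
Snhg6: CTTTCTCggcagcgccgtagagcgcgagca

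Some of the snoRNAs that the hosts carry are shown for their paired boxes, since their table rows bear on the host values below. Capitals mark ATGATG or GTGATG, the C box, near the start and CTGA, the D box, near the end. Snord47 and Snord80 lie in Gas5 (chr1:161038082-161038158 and chr1:161037601-161037681, plus), Snord50a in Snhg5 (chr9:88521529-88521600, minus) and Snord87 in Snhg6 (chr1:9942463-9942549, minus).
Snord47: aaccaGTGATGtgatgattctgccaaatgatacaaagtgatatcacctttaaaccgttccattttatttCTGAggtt
Snord80: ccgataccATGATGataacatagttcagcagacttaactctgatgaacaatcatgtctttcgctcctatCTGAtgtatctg
Snord50a: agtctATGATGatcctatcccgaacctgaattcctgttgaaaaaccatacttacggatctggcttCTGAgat
Snord87: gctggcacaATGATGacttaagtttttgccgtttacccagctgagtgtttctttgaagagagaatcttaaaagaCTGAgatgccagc

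The table gives FPKM, a level per length of transcript and per mapped fragment. From 23543 to 32686 genes had a value above 0 in a library, and 1 fragment on a transcript of 2000 bases was worth 0.00438 to 0.00606 FPKM. Fragments carried no molecular identifiers and are not independent molecules, so depth covers counting error only. The satellite-repeat gene Gm10800 split every group. It exceeded 100 FPKM in HFD replicate 2, NCD replicate 8, 4 °C replicate 11 and 22 °C replicate 4, called satellite-high below. In the other library of each group it stood at most at 4.13 FPKM. The satellite-high libraries were not alike. Gm10800 had 447 FPKM in 4 °C replicate 11, beside 6464 in 22 °C replicate 4, 9038 in NCD replicate 8 and 15726 in HFD replicate 2. In 4 °C replicate 11, 26285 genes were above 0, beside 31741 to 32686 in those libraries. Cold differences between satellite-high libraries therefore set unlike levels of Gm10800 against each other. The label of NCD replicate 6 starts with the same unexplained prefix as those of the temperature libraries, while NCD replicate 8 and both HFD libraries have another prefix. What the prefix marks is not given, and the study's methods describe parallel sequencing of these libraries. The 10 brown adipocyte markers, Ucp1 among them, summed to between 6357 and 16782 FPKM over the 8 libraries, and none was listed at 0 in both libraries of a group.

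Malat1 (ENSMUSG00000092341, chr19:5795690-5802672, minus strand, 1 exon) was the most abundant member in every library. It had 399 and 481 FPKM at 22 °C, 422 and 672 at 4 °C, 219 and 475 under NCD, and 448 and 387 under HFD, each pair in the order of replicate number given above. It ranked between 1 and 4 among the 6987 autosomal lncRNA genes and made up 69.0% to 84.2% of the summed FPKM of the 10 genes. NCD replicate 6 was the lowest library and 4 °C replicate 11 the highest, 3.08 times apart, and each of those groups held a second library well inside the range.

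Neat1 (ENSMUSG00000092274, chr19:5824708-5845478, minus, 1 exon of 20771 bases) came next. It had 24.4 and 35.4 FPKM at 22 °C, 54.7 and 64.0 at 4 °C, 33.2 and 49.5 under NCD, and 43.6 and 41.6 under HFD. The 4 °C libraries were the highest of the 8 and the 22 °C replicate 4 library the lowest. Malat1 exceeded it between 6.59 and 16.4 times, with the largest ratios in the 22 °C libraries.

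Gas5 (ENSMUSG00000053332, chr1:161034422-161038539, plus), a host of box C/D snoRNAs, had 28.7 and 23.7 FPKM at 22 °C, 27.1 and 24.5 at 4 °C, 24.7 and 21.01 under NCD, and 31.1 and 34.9 under HFD. Both HFD libraries were above every other library, and the other 6 spanned 21.01 to 28.7 FPKM. Its coefficient of variation over the 8 libraries was 16.6%, beside 28.7% for Malat1 and 29.3% for Neat1.

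Snhg1 (ENSMUSG00000108414, chr19:8723475-8726443, plus) had 11.3 and 11.6 FPKM at 22 °C, 25.3 and 11.7 at 4 °C, 13.5 and 9.24 under NCD, and 10.6 and 17.1 under HFD. Snhg6 (ENSMUSG00000098234, chr1:9941959-9944118, minus) had 11.4 and 11.4 FPKM at 22 °C, 16.1 and 7.98 at 4 °C, 9.86 and 5.72 under NCD, and 6.22 and 10.6 under HFD. In the 4 °C, NCD and HFD groups both genes were higher in the satellite-low library than in the satellite-high one, and at 22 °C the libraries of the group were alike. The coefficient of variation of Snhg1 was 37.9% and that of Snhg6 33.7%, the highest of the 9 genes other than Miat.

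Snhg8 (ENSMUSG00000104960, chr3:123507552-123508404, minus) had 10.8 and 8.47 FPKM at 22 °C, 5.84 and 6.93 at 4 °C, 6.62 and 6.82 under NCD, and 8.86 and 5.96 under HFD. Snhg12 (ENSMUSG00000086290, chr4:132308678-132311024, plus) had 7.72 and 7.03 FPKM at 22 °C, 4.61 and 5.13 at 4 °C, 4.72 and 5.18 under NCD, and 5.94 and 5.76 under HFD. For Snhg12 the 22 °C libraries were above all others, and for Snhg8 HFD replicate 2 lay between them. Snhg5 (ENSMUSG00000097195, chr9:88521050-88522929, minus) was the steadiest member, with all 8 libraries between 4.55 and 5.85 FPKM and a coefficient of variation of 10.7%.

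Snhg3 (ENSMUSG00000085241, chr4:132348014-132353686, minus), a host of box H/ACA snoRNAs, had 1.18 and 1.06 FPKM at 22 °C, 0.580 and 0.634 at 4 °C, 1.04 and 1.42 under NCD, and 1.22 and 1.596 under HFD. The 4 °C libraries were below the other 6. On its longest transcript these levels correspond to between 22.3 and 62.3 fragments, so the counting error is larger than for the genes above. Miat (ENSMUSG00000097767, chr5:112213228-112229395, minus), a nuclear RNA best known from heart and nervous tissue, stood at 0.0166 to 0.111 FPKM, or 17.8 to 93.8 fragments. Its lowest library was NCD replicate 6 and its highest 4 °C replicate 2, and every pair of groups overlapped except NCD and HFD. Miat ranked between 1750 and 2899 and Snhg3 between 260 and 691 among the 6987 autosomal lncRNA genes, so neither was abundant in this tissue, whereas the other 8 genes ranked 129 or higher in every library.

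**Figure D1:**
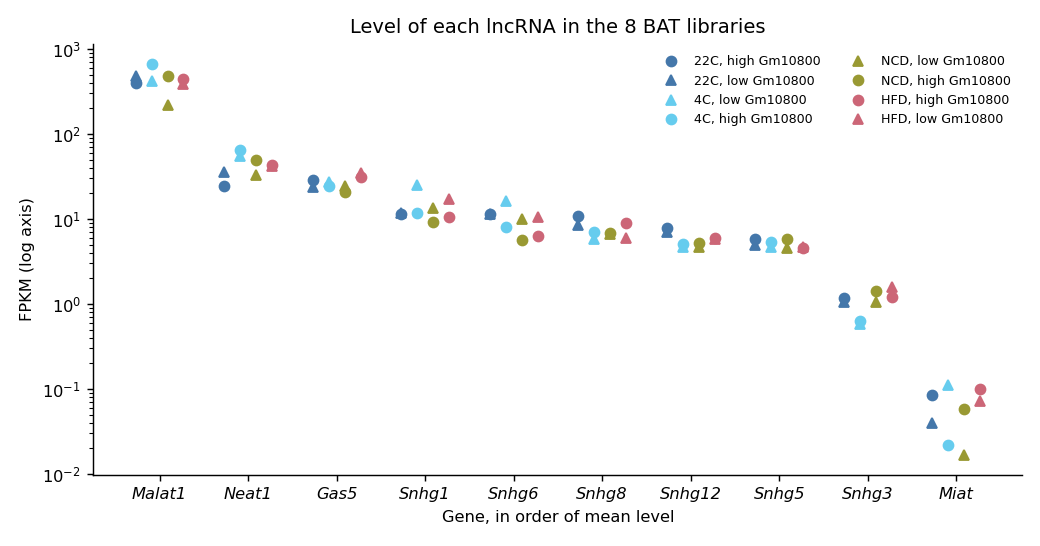
FPKM on a log axis of the 10 lncRNAs in each library, in order of their mean over the 8 libraries, with circles for satellite-high and triangles for satellite-low libraries and colours for the groups. Malat1 lies between 219 and 672 FPKM, 9 of the 10 genes lie above 0.5 FPKM in all libraries, and Miat lies at or below 0.111.

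By mean level the order was Malat1, Neat1, Gas5, Snhg1, Snhg6, Snhg8, Snhg12, Snhg5, Snhg3 and Miat. The ranges over libraries did not overlap between Malat1 and Neat1, between Snhg5 and Snhg3, or between Snhg3 and Miat, and all other neighbours in the order overlapped. Within libraries Gas5 was above Snhg1, and Snhg8 above Snhg12, in 8 of 8, whereas Snhg12 was above Snhg5 in 5.

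The cold comparison asks which RNAs differ between BAT at 4 °C and at 22 °C. Neat1 was higher at 4 °C and Snhg3, Snhg8 and Snhg12 were lower, with no overlap between the groups, but none of these differences passed the test. Each gene was tested with limma on log2(FPKM + 1) across the 17470 autosomal genes that reached 0.1 FPKM in 2 or more of the libraries compared, and past threshold means an adjusted p under 0.05 with at least a 2-fold difference. Miat was not tested, as 1 library of the 4 reached 0.1 FPKM, so 9 of the 10 members entered. Of these 9, 0 were past threshold, beside 1.44% of all genes tested, and 3 had an unadjusted p under 0.05 (Neat1, Snhg3 and Snhg12), beside 24.5% of all genes. Members higher at 4 °C without overlap numbered 2, Neat1 and Snhg1, where 37.9% of all genes were, and 3 were lower without overlap, where 20.6% of all genes were. The median log2 difference of the 9 was -0.02, beside 0.07 over all genes tested. Over the genes that reached 1 FPKM in 2 or more of these libraries the median was 0.21, and 3 of the 9 members were above it. All X genes were listed at 0 in both 22 °C libraries, whereas 781 and 840 of them were above 0 in the 4 °C libraries. This difference between the library columns coincides with the temperature groups, and its part in the cold differences was not tested.

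The log2 difference of Neat1 was 0.99 (limma SE 0.26, 95% interval 0.32 to 1.65, adjusted p = 0.106, n = 2 per group), or 1.98-fold. It was 1.36 between the satellite-high libraries and 0.61 between the satellite-low ones. Over 14 other settings it ranged from 0.48 to 1.25 with adjusted p between 0.0749 and 0.621. Malat1, its neighbour, differed by 0.28 (SE 0.36, interval -0.63 to 1.195, adjusted p = 0.675), and its groups overlapped. Between the satellite-high libraries Malat1 was higher at 4 °C by 0.75 and between the satellite-low ones it differed by -0.19.

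Among the hosts, Snhg12 differed by -0.51 (limma SE 0.18, interval -0.97 to -0.06, adjusted p = 0.169), Snhg8 by -0.52 (SE 0.21, interval -1.05 to 0.01, adjusted p = 0.208) and Snhg3 by -0.40 (SE 0.11, interval -0.68 to -0.12, adjusted p = 0.113). Within library types the differences were -0.51 (high) and -0.52 (low) for Snhg12, -0.58 and -0.47 for Snhg8, and -0.41 and -0.38 for Snhg3, so both types gave the same direction. In all 14 other settings these hosts stayed negative, from -0.36 to -0.89. Because 1 is added before the logarithm, the difference of Snhg3 is understated, and with 0.1 added instead it was -0.78.

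Snhg1 differed by 0.56 (limma SE 0.37, interval -0.37 to 1.49, adjusted p = 0.402). That value rested on 4 °C replicate 2, since it was 0.03 without that library and 1.08 without 4 °C replicate 11. Gas5 differed by -0.02 (interval -0.55 to 0.51), Snhg5 by -0.10 (interval -0.57 to 0.38) and Snhg6 by 0.0006 (interval -0.84 to 0.84). For these hosts the intervals still allow differences of the size seen in Snhg12. Snhg6 was lower by 0.47 between satellite-high libraries and higher by 0.47 between satellite-low ones, so its difference near 0 is a mean of opposite values.

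**Figure D2:**
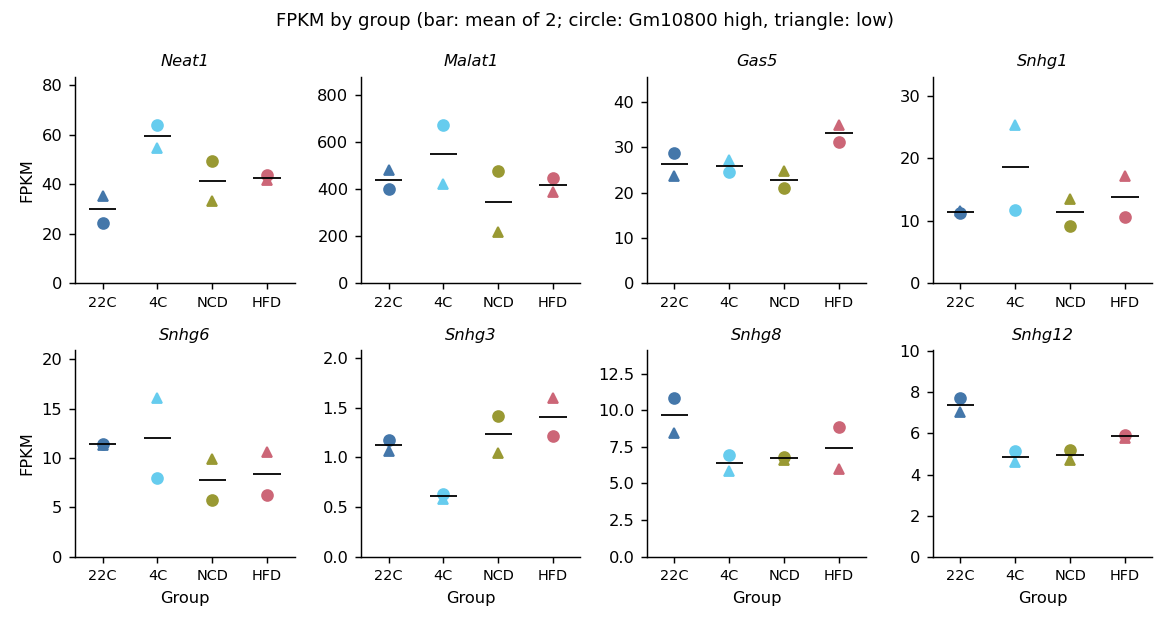
FPKM on linear axes from 0 of 8 of the genes by group, with a bar at the mean of 2 libraries, circles for satellite-high and triangles for satellite-low libraries. Neat1 is highest and Snhg3 lowest in the 4 °C libraries, Gas5 is highest under HFD, and the 2 libraries of a group lie far apart for Snhg1 and Snhg6 at 4 °C.

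Markers of brown adipocytes and of skeletal muscle moved with the cold comparison. Of the 10 brown adipocyte markers, 8 were higher and 2 lower at 4 °C without overlap. The 10 summed to 6357 to 6625 FPKM at 22 °C and 14661 to 16782 at 4 °C. By limma 3 of the 10 were past threshold and higher at 4 °C (Dio2, Elovl3 and Ppargc1a). That count was 2 without 4 °C replicate 11 and 0 without 4 °C replicate 2, with no filter or without the intensity trend. For skeletal muscle, all 11 markers found were higher at 4 °C without overlap, none was past threshold, and their summed level was 109 to 549 FPKM at 22 °C and 1947 to 4195 at 4 °C. No muscle marker was listed at 0 in both libraries of either group. The 5 proliferation markers, at 0.661 to 1.19 FPKM in sum, were all lower at 4 °C without overlap. All 7 lymphoid markers tested had a negative difference, 4 of them without overlap. The lymphoid list summed to 1.29 to 1.78 FPKM at 22 °C and 0.800 to 0.855 at 4 °C. The part of these tissues or cells in the values of Neat1 and the hosts was not tested.

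The diet comparison asks which RNAs differ between BAT after HFD and NCD feeding. Gas5 and Snhg12 were higher under HFD without overlap, and 7 members overlapped between the groups. Of the 9 members tested with limma among 17535 genes, 0 were past threshold, beside 0.0684% of all genes, and 0 had an unadjusted p under 0.05, beside 14.4% of all genes. Members higher without overlap numbered 2, where 39.9% of all genes were, and 0 were lower without overlap, where 5.8% of all genes were. The median log2 difference of the 9 was 0.11, beside 0.18 over all genes tested. Over the genes that reached 1 FPKM in 2 or more of these libraries the median was 0.29, and 2 of the 9 members were above it.

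Gas5 differed by 0.51 (limma SE 0.39, 95% interval -0.41 to 1.44, adjusted p = 0.600, n = 2 per group), or 1.43-fold, with 0.55 between satellite-high and 0.48 between satellite-low libraries. It stayed positive in 14 other settings, from 0.20 to 0.63, and its lowest adjusted p there was 0.0864, with library type as a covariate. Without the intensity trend the limma SE of Gas5 was 0.15, with an unadjusted p of 0.0321 and an adjusted p of 0.338. Snhg12 differed by 0.20 (SE 0.30, interval -0.50 to 0.91, adjusted p = 0.798). Both libraries of NCD were below both of HFD for Snhg12, but the direction turned with the scaling, at -0.11 after median centring.

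Malat1 differed by 0.37 (limma SE 0.66, interval -1.17 to 1.91, adjusted p = 0.839) and Neat1 by 0.07 (SE 0.44, interval -0.96 to 1.10, adjusted p = 0.958). Both depended on which NCD library was kept. NCD replicate 6 has the label prefix of the temperature libraries. All its X genes were listed at 0, whereas 1124 were above 0 in NCD replicate 8, 1175 in HFD replicate 2 and 779 in HFD replicate 6. The part of this in the diet differences was not tested. Without NCD replicate 6, and so among libraries of the same prefix, the differences were -0.19 for Malat1 and -0.21 for Neat1. Without NCD replicate 8 they were 0.93 for Malat1 and 0.35 for Neat1. The other hosts lay between -0.14 for Snhg5 and 0.25 for Snhg1, all with overlapping groups. Miat, not tested, had 0.0166 and 0.0575 FPKM under NCD, below both HFD libraries, the lower of which had 0.0730.

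**Figure D3:**
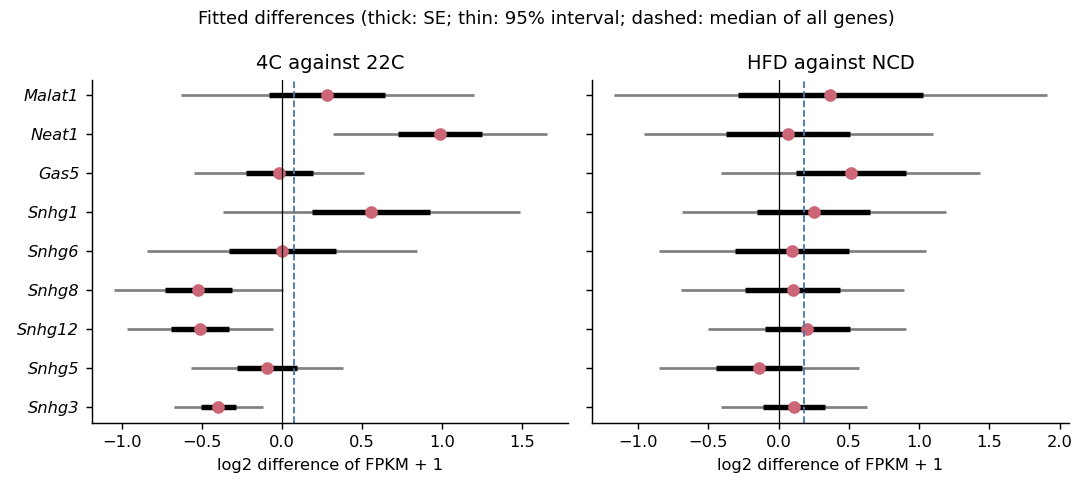
Log2 differences of FPKM + 1 fitted with limma for the 9 tested genes at 4 °C against 22 °C (left) and under HFD against NCD (right), with the SE as a thick and the 95% interval as a thin line and the median of all genes dashed. At 4 °C the intervals of Neat1, Snhg3 and Snhg12 leave out 0 before adjustment, and under HFD no interval does.

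With the diet, all 8 macrophage markers were higher under HFD without overlap, summing to 47.5 to 124 FPKM under NCD and 241 to 280 under HFD, and all 5 proliferation markers were too. Of the 11 muscle markers, 10 were lower under HFD without overlap, summing to 565 to 1505 FPKM under NCD and 16.4 to 186 under HFD. The 6 endothelial markers all had a positive difference, 3 of them without overlap, and summed to 66.6 to 68.7 FPKM under NCD and 101.7 to 101.8 under HFD. Of the 10 brown adipocyte markers, 3 were higher and 2 lower under HFD without overlap, with differences from -3.14 for Elovl3 to 0.86 for Dio2 and sums of 7608 to 13496 FPKM under NCD and 8307 to 11533 under HFD. In the fit as reported none of these markers was past threshold, and none was listed at 0 in both libraries of a group. With library type as a covariate, limma placed 2 of the brown adipocyte markers past threshold. The part of all these markers in the level of Gas5 was not tested.

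Scaling moved these numbers as a whole. Median centring took the median difference over all genes from 0.07 to -0.06 at 4 °C and from 0.18 to -0.14 under HFD, and rescaling to the same autosomal sum took it to -0.11 and 0.09. At 4 °C 4 members had a positive and 5 a negative difference, which became 2 and 7 after quantile normalization. Under HFD 8 were positive and 1 negative, which became 2 and 7 after median centring. Neat1 and Snhg1 stayed positive and Snhg3, Snhg8 and Snhg12 negative in the cold comparison under all 14 settings, while only Gas5 kept its sign under all of them in the diet comparison.

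**Figure D4:**
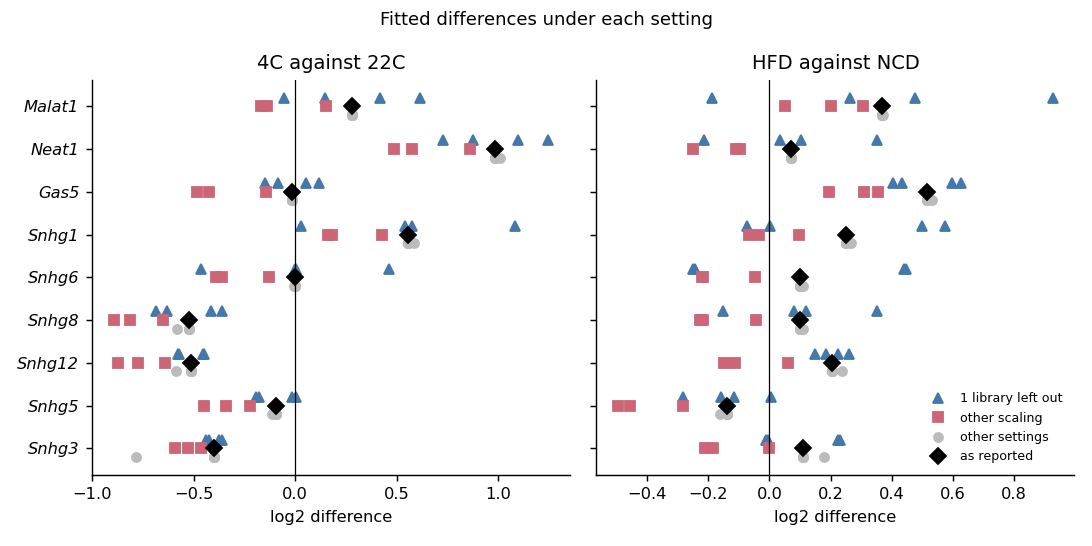
Log2 differences of the 9 genes under each setting, with the reported value as a black diamond, fits with 1 library left out as triangles, other scalings as squares and the remaining settings as grey circles. In the cold panel Neat1 stays between 0.48 and 1.25 and Snhg12 between -0.87 and -0.45, whereas most genes of the diet panel cross 0.

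The snoRNAs were recorded unevenly, which bears on how the host rows can be read. The table holds 29 rows annotated as snoRNA inside 7 of the hosts on the same strand. Of these, 21 of 60 to 87 bases, Snord47, Snord80, Snord50a and Snord87 among them, were listed at 0 in all 8 libraries, and the 8 rows above 0 were 126 to 205 bases long. Over all autosomal snoRNA rows, 2 of 484 shorter than 110 bases and 243 of 955 of at least that length were above 0, so a 0 in a short row is not read here as absence of the snoRNA.

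Snord22, in Snhg1, was at 5.39 FPKM in 22 °C replicate 4 and 30.9 in 4 °C replicate 11, and between 1521 and 3938 in the other 6 libraries. Snora44, in Snhg12, was at 0.840 and 12.6 in the same libraries and between 178 and 694 in the others. Snora73a, in Snhg3, was at 133 and 176 there and between 409 and 1617 elsewhere. The 243 longer snoRNA rows together summed to 2341 FPKM in 22 °C replicate 4 and 3165 in 4 °C replicate 11, beside 49894 to 101059 in the rest. Those libraries are the satellite-high ones of the temperature groups, and the hosts Snhg1, Snhg3 and Snhg12 did not stand apart in both of them. Of the snoRNA rows inside the members, 7 were tested in each comparison, with 0 past threshold and 0 at an unadjusted p under 0.05 by limma. At 4 °C the groups overlapped in 6 of them, with adjusted p of 0.777 for Snord22, 0.719 for Snora44 and 0.591 for Snora73a among them. Snora61, in Snhg12, was at 0 and 0.000708 FPKM at 22 °C and 8.42 and 0.375 at 4 °C, so it entered the test at 4 °C only through the 4 °C libraries and its difference is not read as a result. Under HFD the groups overlapped in all 7 rows. Snora61 had 36.0 and 19.01 FPKM under NCD and 19.4 and 0.0166 under HFD (-2.58, adjusted p = 0.382 by limma), and Snora24, in Snhg8, had 14.9 and 5.47 under NCD and below 0.01 and 7.68 under HFD (-1.78, adjusted p = 0.439).

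**Figure D5:**
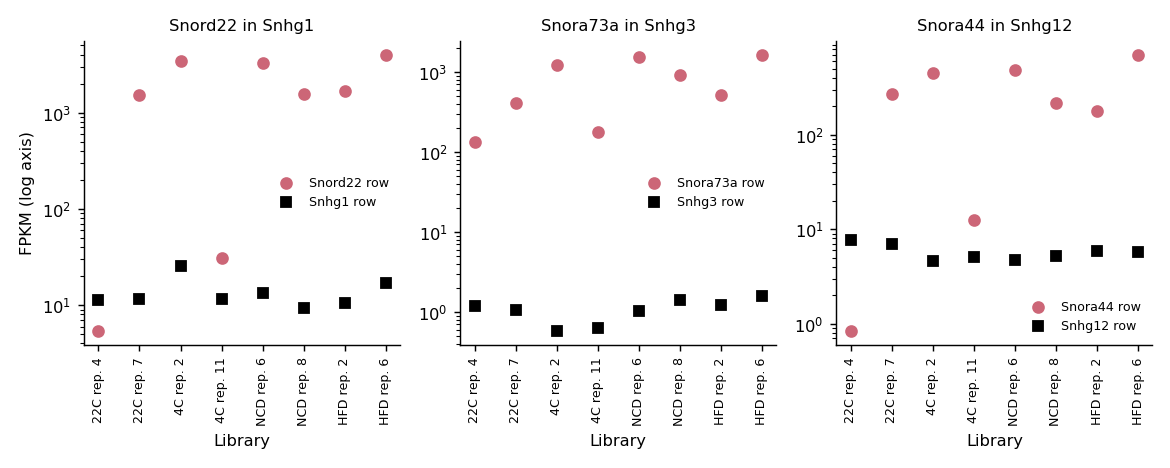
FPKM on a log axis of 3 snoRNA rows (circles) and of the host genes that contain them (squares) in each library. The 3 snoRNA rows are at their lowest in 22 °C replicate 4 and 4 °C replicate 11, and the host rows span at most 2.75-fold over the 8 libraries.

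Rows on the other strand were checked because the libraries were directional but the use of strand in the counting is not stated. Inside Malat1 the table has the row ENSMUSG00000092267 on the plus strand (chr19:5797562-5798549), with no name in the annotation, at 42.9 to 118 FPKM. It ran at 16.5% to 20.5% of Malat1 in every library, with Pearson r of 0.961 on log2(FPKM + 1) over the 8 libraries. A further plus-strand row inside Malat1, Gm37376 (chr19:5801941-5802393), had 48.1 to 165 FPKM, or 12.1% to 36.9% of Malat1, and its r was 0.67, so it followed Malat1 less closely. How much of either row is Malat1 signal was not tested.

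Slc3a2, which codes for the heavy chain of amino acid transporters, starts within 1000 bases of Snhg1 on the other strand. It had 18.6 and 19.98 FPKM at 22 °C, 96.3 and 63.8 at 4 °C, 25.1 and 15.7 under NCD, and 19.3 and 26.8 under HFD. Both 4 °C libraries were above the other 6. It rose at 4 °C by 1.97 (limma SE 0.27, adjusted p = 0.0442), while Snhg1 across the start differed by 0.56 with an adjusted p of 0.402. The call of Slc3a2 was lost without 4 °C replicate 2 (1.68, adjusted p = 0.119), with no filter on low values (adjusted p = 0.170) and without the intensity trend (0.0802), and held in the other 11 settings. Under HFD Slc3a2 differed by 0.19 (adjusted p = 0.877). Rcc1, which shares the Snhg3 locus on the same strand, differed by -0.01 at 4 °C, where Snhg3 differed by -0.40.

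Other genes of the same pathways were read from the same fits. Their counts of groups without overlap stand beside those over all genes. These were 37.9% higher and 20.6% lower at 4 °C, and 39.9% higher and 5.8% lower under HFD. The list medians stand beside 0.07 at 4 °C and 0.18 under HFD over all genes tested. Over genes that reached 1 FPKM in 2 or more of the libraries compared, those medians were 0.21 and 0.29. There the added 1 shrinks differences less. Of all genes, 24.5% at 4 °C and 14.4% under HFD had an unadjusted p under 0.05 by limma. In the fits as reported limma placed 0 genes of these lists past threshold in either comparison, and other settings were tabulated only for the genes given below with their values.

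Of 14 further snoRNA hosts, 10 were found and tested, with 2 at 4 °C and 0 under HFD at an unadjusted p under 0.05 by limma. At 4 °C 4 of the 10 were lower and 1 higher without overlap, with a median of -0.16, and under HFD 1 was lower and 3 higher, with a median of -0.03. Snhg11 had 1.35 and 0.646 FPKM at 22 °C and 0.314 and 0.148 at 4 °C (-0.68, adjusted p = 0.112). The difference was -0.42 without 22 °C replicate 4 (adjusted p = 0.0809 by limma) and -0.94 without 22 °C replicate 7, where its adjusted p of 5.1e-05 came with a change under the fold threshold. At such levels the added 1 shrinks the difference, which was -1.70 with 0.1 added (adjusted p = 0.0963). Snhg18 had 2.08 and 1.65 against 1.09 and 0.953 (-0.50, and -0.81 with 0.1 added). Under HFD the lowest p was that of Snhg17, with 1.25 and 0.889 FPKM under NCD and 1.53 and 2.34 under HFD (0.50, adjusted p = 0.422), and its difference was 0.29 without HFD replicate 6.

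Among 8 other nuclear or imprinted lncRNAs, 1 at 4 °C and 3 under HFD had an unadjusted p under 0.05 by limma. At 4 °C 2 were higher and 2 lower without overlap, with a median of 0.02, and under HFD 7 were higher and 0 lower, with a median of 0.39. Airn, the antisense lncRNA of the Igf2r locus, had 3.93 and 3.01 FPKM at 22 °C and 1.11 and 1.37 at 4 °C (-0.99, adjusted p = 0.0626 by limma). It passed the threshold after median centring (-1.12, adjusted p = 0.0349), after rescaling (-1.27, adjusted p = 0.0397) and without 22 °C replicate 7 (-1.14, adjusted p = 0.0247). Meg3, an imprinted lncRNA, had 0.979 and 1.16 under NCD and 4.30 and 3.32 under HFD (1.21, adjusted p = 0.151). With library type as a covariate, which takes out the split into satellite-high and satellite-low libraries, Meg3 passed the threshold (1.21, adjusted p = 0.00722 by limma). In that setting 744 of all genes passed under HFD, beside 12 in the fit as reported.

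Of the 10 tested paraspeckle proteins, 5 were higher and 2 lower at 4 °C without overlap, with 0 at an unadjusted p under 0.05, and 5 were higher under HFD, with 1. Their medians were 0.18 and 0.45. Hnrnpk, an RNA-binding protein, had 62.4 and 59.5 FPKM at 22 °C and 81.7 and 87.8 at 4 °C (0.47, adjusted p = 0.254 by limma), and its direction turned to -0.06 after quantile normalization. Rbm14 had 0.989 and 1.26 under NCD and 2.14 and 2.31 under HFD (0.60, adjusted p = 0.302). Of the 16 nuclear speckle proteins, 9 were higher and 4 lower at 4 °C and 10 higher under HFD without overlap, with 0 at an unadjusted p under 0.05 in both and medians of 0.23 and 0.51. Srsf6, a splicing factor, had 17.5 and 15.9 FPKM at 22 °C and 31.2 and 21.6 at 4 °C (0.61, adjusted p = 0.207 by limma). Its difference was 0.36 without 4 °C replicate 2 and 0.87 without 4 °C replicate 11. Acin1 had 7.72 and 9.29 under NCD and 15.0 and 14.1 under HFD (0.72, adjusted p = 0.393 by limma).

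Of 13 tested snoRNP proteins, which bind snoRNAs, 7 were higher and 1 lower at 4 °C without overlap, and 1, Nolc1, had an unadjusted p under 0.05, at 2.91 and 2.47 FPKM at 22 °C and 4.58 and 4.33 at 4 °C. Nop10, the lower gene, differed by -0.65 (adjusted p = 0.228 by limma) and passed the threshold after rescaling (-1.06, adjusted p = 0.0473). Without 4 °C replicate 11 the difference was -0.34 (adjusted p = 0.301 by limma) and without 4 °C replicate 2 it was -0.96 (adjusted p = 0.135). Under HFD 4 were higher and 1 had an unadjusted p under 0.05, Nop56, a core C/D protein, with 4.86 and 4.42 FPKM under NCD and 8.78 and 8.76 under HFD. The medians were 0.16 at 4 °C and 0.28 under HFD.

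Of 13 tested NMD factors, 6 were higher at 4 °C and 8 under HFD without overlap and 0 lower, with 1 at an unadjusted p under 0.05 in each and medians of 0.18 and 0.44. Smg5 had 9.24 and 10.2 FPKM at 22 °C and 17.5 and 14.9 at 4 °C (0.67, adjusted p = 0.121 by limma), and Upf1, the helicase of NMD, had 3.38 and 3.47 under NCD and 5.99 and 7.24 under HFD (0.78, adjusted p = 0.304). Of 15 further TOP mRNAs, 6 were higher and 2 lower at 4 °C and 4 higher under HFD without overlap, with 1 at an unadjusted p under 0.05 in each comparison and medians of 0.25 and 0.31. Pabpc1, the poly(A)-binding protein, had 22.7 and 22.7 FPKM at 22 °C and 16.6 and 13.6 at 4 °C (-0.56, adjusted p = 0.176). Nap1l1, a histone chaperone, had 12.7 and 9.06 under NCD and 22.3 and 27.1 under HFD (1.12, adjusted p = 0.253 by limma). It passed the threshold with library type as a covariate (adjusted p = 0.0109). With that covariate Snhg17, Rbm14, Acin1, Upf1 and Nop56 had limma adjusted p of 0.0217 to 0.0493 under HFD, at differences under the fold threshold.

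Over the 8 libraries the members did not share a pattern. Among the 45 pairs, Pearson r on log2(FPKM + 1) was highest for Snhg8 with Snhg12 (0.85) and Snhg1 with Snhg6 (0.80), and lowest for Neat1 with Snhg12 (-0.69). Malat1 and Neat1 gave 0.57. These values describe 8 libraries that share groups, scaling and library type. Among 10877 autosomal genes whose mean reached 1 FPKM, the patterns most like Malat1 were those of Ube3b (r = 0.987), Zzef1 (0.968) and Ctdnep1 (0.965). Those most like Neat1 were Ogdh, a subunit of a citric acid cycle enzyme (0.958), Pigo (0.957) and Rtn4ip1, a mitochondrial protein (0.935). Those most like Gas5 were Wsb1 (0.987), Rcn3 (0.981) and Rarres2, which codes for chemerin (0.980). Ogdh was higher in both 4 °C libraries (228 and 231 FPKM) than in the 22 °C ones (119 and 149), as Neat1 was. Rarres2 had 43.1 and 16.4 FPKM under NCD and 122 and 185 under HFD. Both genes were picked for their likeness over these same libraries, so a shared direction restates that choice and is no separate result.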

How the data were processed

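BAT RNA was depleted of ribosomal RNA, made into directional libraries and sequenced as paired reads of 100 bases. The authors mapped reads to GRCm38 and deposited FPKM per gene and library from Cufflinks with Ensembl 87 genes. The submitters' processing notes list FastQC 0.10.1, TopHat2 2.0.10, STAR, Cufflinks 2.2.1, DESeq2 and R 3.2.2. Counts were not used here, so DESeq2 could not be repeated. Groups came from the labels. FPKM were tested as log2(FPKM + 1) with limma 3.58.1 (R 4.3.3; lmFit, eBayes with trend), two-sided, with Benjamini-Hochberg adjustment over all autosomal genes with at least 0.1 FPKM in 2 of 4 libraries. The script was tested on simulated data. Sex-linked and mitochondrial genes were left out because X genes were listed at 0 in 3 libraries, both of 22 °C and NCD replicate 6. Low values fell on whole fragments within 0.1 for 99.5% to 99.9% of values. With 2 against 2, an exact permutation test cannot go below p = 0.333. Of related genes, the rule took those past threshold, or else the 2 with the lowest p per list and comparison, and at least the lowest is described. The members and lists were chosen with earlier results of these data known. Sequences are from RefSeq GRCm38.p6 and GENCODE M21. Tables were handled in Python 3.11.15.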

Additional observations from a re-analysis of the deposited data

How the results depend on the processing

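No member was past threshold under any of the 14 settings in either comparison. Without the fold requirement 0 members passed, except that Snhg3 reached an adjusted p of 0.0488 by limma at 4 °C after rescaling to the autosomal sum. The values that changed sign follow as log2 differences; the causes were not tested. At 4 °C, Snhg6 was -0.0058 with 0.1 added, -0.13 after median centring, -0.36 after quantile normalization and -0.39 after rescaling, Hnrnpk was -0.056 after quantile normalization, and Malat1 -0.17 after quantile normalization and -0.14 after rescaling. Leaving out 1 library at a time gave -0.053 to 0.62 for Malat1, -0.15 to 0.12 for Gas5, -0.20 to 0.0030 for Snhg5 and -0.46 to 0.46 for Snhg6. Under HFD, median centring gave -0.25 for Neat1, -0.068 for Snhg1, -0.21 for Snhg3, -0.22 for Snhg6, -0.22 for Snhg8 and -0.11 for Snhg12. Quantile normalization gave -0.11, -0.035, -0.18, -0.22, -0.23 and -0.15 for the same genes in that order. Rescaling gave -0.095 for Neat1, -0.0027 for Snhg3, -0.047 for Snhg6 and -0.045 for Snhg8. Leaving out 1 library at a time gave -0.19 to 0.93 for Malat1, -0.21 to 0.35 for Neat1, -0.074 to 0.58 for Snhg1, -0.012 to 0.23 for Snhg3, -0.28 to 0.0062 for Snhg5, -0.25 to 0.45 for Snhg6 and -0.15 to 0.35 for Snhg8. With 1 library left in a group, limma assumes that it varies like the others. No paired analysis by replicate number was possible because the 22 °C and 4 °C groups share none and NCD and HFD share only number 6. With library type as a covariate, which sets libraries of a type against each other, limma called 0 members in both comparisons, beside 859 and 744 of all genes (252 and 12 without it), and 4 and 1 members had an unadjusted p under 0.05, as did 25.4% and 36.5% of all genes. At 2 libraries a group the intervals span over 1 log2 unit for most members, and FPKM alone carry no separate counting error. The alternatives were left-out libraries, another pseudocount, filters, scalings, covariates and pooled fits. With all libraries kept, the number of all genes past threshold ran from 0 to 920 at 4 °C and from 0 to 744 under HFD. The share of all genes set beside the members therefore also depends on the setting.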
